A study of Sus scrofa with 13 samples.

Results

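The thin filament of the muscle sarcomere was examined through 10 genes chosen by name: the actins ACTA1 and ACTC1, the tropomyosins TPM1 and TPM2, nebulin (NEB), the alpha-actinins ACTN2 and ACTN3, and the pointed-end proteins TMOD4, LMOD2 and LMOD3. Of the 10 symbols, 8 matched an identifier in both count tables of the series, which list 25322 genes. ACTN3 and LMOD3 matched no identifier and were not analysed here. The series measured RNA in the longissimus lumborum, the loin muscle, of 13 unrelated female pigs aged 6 months. The pigs were of 2 sire breeds, Hampshire and Pietrain. By the paper's account they were chosen from a larger population by loin weight, aiming at extreme groups within each breed. The groups held 3 Hampshire pigs of high loin weight (pigs 8, 9 and 10), 3 Hampshire pigs of low loin weight (pigs 1, 2 and 3), 4 Pietrain pigs of high loin weight (pigs 1, 2, 6 and 7) and 3 Pietrain pigs of low loin weight (pigs 3, 5 and 8). The labels name no treatment and no allele for any group. Each group holds single animals of 1 sex and 1 age, sampled once at slaughter.

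Force in skeletal muscle is made where myosin heads pull on thin filaments. A thin filament is a polymer of actin on which tropomyosin strands and the troponin complex lie, and calcium binding to troponin moves tropomyosin off the myosin binding sites. The barbed ends of the filaments are anchored by alpha-actinin in the Z-disc, the giant protein nebulin runs along the filament, and tropomodulin and leiomodin act at the pointed end, where filament length is set. Several of these proteins come in slow and fast or in fetal and adult forms, and mutations in the genes for actin, tropomyosin, nebulin and leiomodin cause nemaline myopathies in humans.

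Levels are given as CPM, counts divided by the size of the library after TMM scaling, so that pigs can be compared. CPM is not divided by transcript length, so levels were compared between pigs and are not comparable between genes. The libraries held 11312755 to 20134612 counts, and the smallest count behind any value of ACTA1, TPM1, TPM2, NEB, ACTN2, TMOD4 or LMOD2 was 1977. ACTC1 was counted far less, with 25 counts in 1 pig. A principal component analysis of the 12831 genes that passed a filter on low counts placed 49.8% of the variance on its first axis. That axis separated the breeds and set the Hampshire high group farthest from the others. The labelled tissue was checked on the 4 of 8 skeletal fibre markers that matched, whose summed level lay between 59904 and 127937 CPM in every pig. Each breed had its own count table, so that breed and table cannot be told apart. In whole tissue, fewer cells of a type and less RNA per cell cannot be told apart either. In the test, a gene was called when its Benjamini-Hochberg adjusted p-value in edgeR's quasi-likelihood test was under 0.05 and its fold change at least 1.2.

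**Figure D1:**
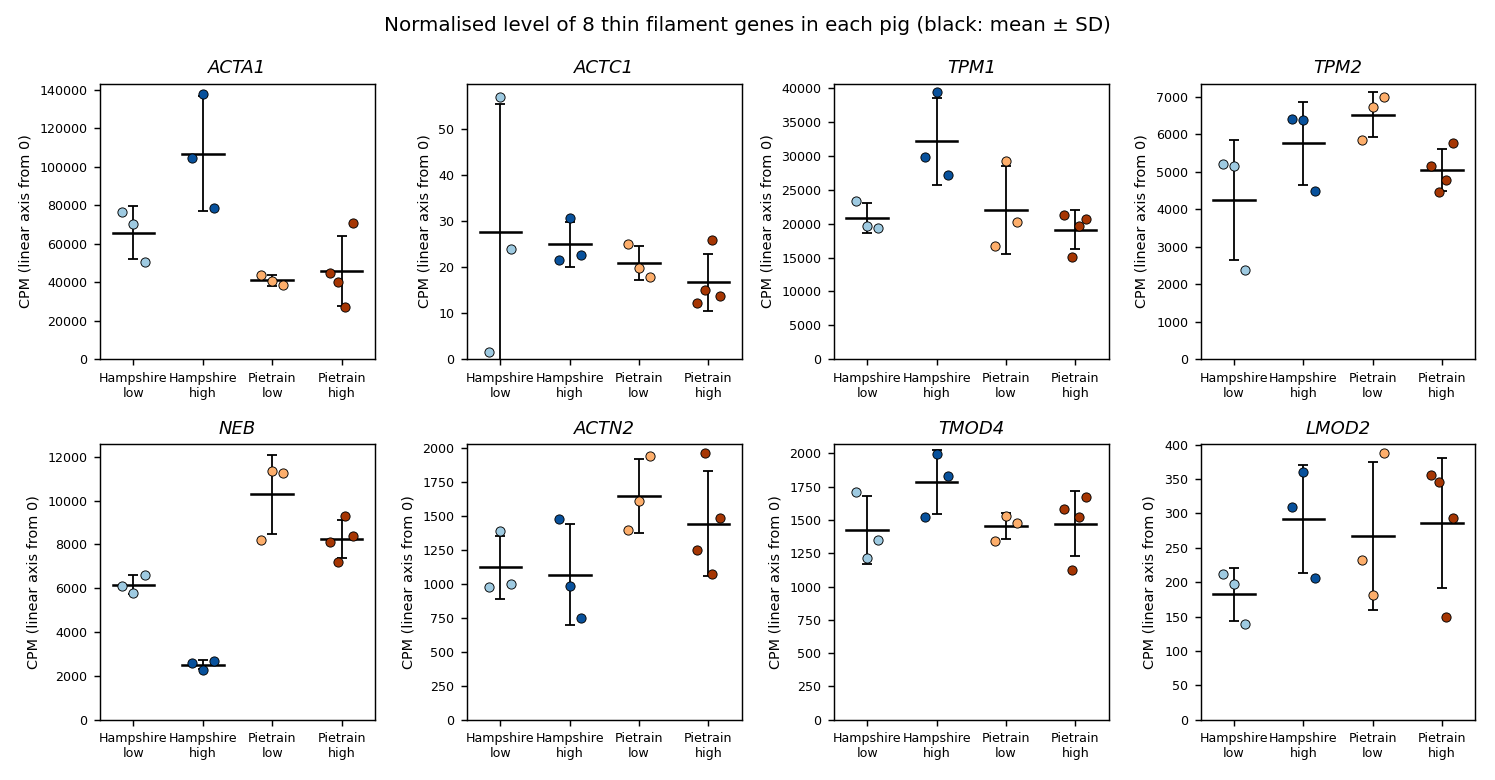
Normalised level (CPM, linear axes from 0, a separate scale for each gene) of the 8 genes in each of the 13 pigs, by breed and loin weight. Points are pigs and black lines the group mean ± SD. The 3 Hampshire high pigs lie between 2274 and 2686 CPM for NEB, below all other pigs, and 1 Hampshire low pig has 1.53 CPM of ACTC1.

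Between the loin weight groups of the Hampshire breed, nebulin was the only member that passed the test. Its level in the high group was 0.408 times that in the low group. ACTA1, TPM1 and LMOD2 had fold changes of 1.62, 1.54 and 1.59 in the opposite direction without passing the test, and ACTC1 and ACTN2 had fold changes of 0.907 and 0.946. One called member of 8 stands beside 26.6% of 12228 genes called in this comparison, and 14.6% called lower, so the members were not called more often than genes in general. The median log2 fold change was 0.37 over the 8 members and 0.029 over all genes tested. The groups did not overlap for 3 members, ACTA1, TPM1 and NEB, beside 45.9% of all genes.

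Nebulin is encoded by NEB (ENSSSCG00000016397), which spans chromosome 15 from 156931032 to 157035322 on Sscrofa10.2. In the Hampshire high group its level was 2599 CPM in pig 8, 2274 CPM in pig 9 and 2686 CPM in pig 10. In the Hampshire low group it was 6087 CPM in pig 1, 5788 CPM in pig 2 and 6621 CPM in pig 3. The pigs within each group lay close together, and the highest pig of the high group was well below the lowest pig of the low group. The log2 fold change of NEB was -1.29 (SE 0.188, n = 3 and 3), with an adjusted p of 0.00344 in edgeR's quasi-likelihood test. By unadjusted p it ranked 261 of 12228 genes. The exact permutation test on log2 CPM gave p = 0.10, the smallest that 3 pigs against 3 allow. In the Pietrain high group the level was 8119, 7220, 9296 and 8386 CPM in pigs 1, 2, 6 and 7, and in the Pietrain low group it was 8216, 11375 and 11263 CPM in pigs 3, 5 and 8. Pietrain low pig 3 lay inside the range of the high group, so the groups overlapped.

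Skeletal muscle actin, the main actin of adult skeletal muscle, is encoded by ACTA1 (ENSSSCG00000010190, chromosome 14 from 65236451 to 65239189). It took 3.06% to 11.2% of all counts of a pig. The level was 104579, 137752 and 78438 CPM in Hampshire high pigs 8, 9 and 10. Hampshire low pigs 1, 2 and 3 had 76647, 70077 and 50302 CPM. The groups did not overlap, but only a narrow gap separated high pig 10 from low pig 1. The log2 fold change of ACTA1 was 0.69 (SE 0.297), with an adjusted p of 0.111 in edgeR's quasi-likelihood test, and it was 0.44 without high pig 9. Among Pietrain pigs the level was 44570, 40235, 27239 and 70616 CPM in high pigs 1, 2, 6 and 7 and 43936, 40596 and 38417 CPM in low pigs 3, 5 and 8. High pigs 6 and 7 were the lowest and the highest of the breed, with the 3 low pigs between them.

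Cardiac actin, the form of heart and of developing skeletal muscle, is encoded by ACTC1 (ENSSSCG00000004803), for which the tables give no coordinates. Its level was 21.6, 30.6 and 22.6 CPM in Hampshire high pigs 8, 9 and 10. Hampshire low pigs 1, 2 and 3 had 1.53, 57.0 and 24.0 CPM. The low group therefore held both the lowest and the highest pig of the series, and its SD of 27.9 CPM was as large as its mean of 27.5 CPM. Pietrain high pigs ranged from 12.1 to 25.9 CPM and all 3 Pietrain low pigs lay within that range. The Hampshire log2 fold change of ACTC1 was -0.14 (SE 0.820, edgeR's quasi-likelihood adjusted p = 0.915) and became 0.97 without low pig 2 and -0.75 without low pig 1. ACTA1 and ACTC1 have closely similar coding sequences, and reads that match both could be counted for either. RSEM, which can divide shared reads between genes, is among the tools the submitters name, but with no role given, so the ACTC1 level is uncertain.

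The tropomyosins did not pass the test in Hampshire. TPM1 (ENSSSCG00000004570, chromosome 1 from 120217106 to 120240145), which encodes alpha-tropomyosin, the form of fast fibres and heart, had 29872, 39489 and 27210 CPM in high pigs 8, 9 and 10. Low pigs 1, 2 and 3 had 23395, 19685 and 19435 CPM. All 3 high pigs were above all 3 low pigs, with a log2 fold change of 0.62 (SE 0.236) and an adjusted p of 0.0803 in edgeR's quasi-likelihood test. TPM2 (ENSSSCG00000005316, chromosome 1 from 264127281 to 264134736) encodes beta-tropomyosin, which pairs with the alpha form. Its level was 6392, 6383 and 4485 CPM in high pigs 8, 9 and 10 and 5194, 5146 and 2384 CPM in low pigs 1, 2 and 3. High pig 10 fell below low pigs 1 and 2, so the groups overlapped. The log2 fold change of TPM2 was 0.43 (SE 0.314), with an adjusted p of 0.329 in edgeR's quasi-likelihood test, and it was 0.14 without low pig 3. The 2 genes also share sequence, with the same uncertainty.

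Among Pietrain pigs, TPM1 was 21230, 15030, 19686 and 20639 CPM in high pigs 1, 2, 6 and 7 and 16657, 29213 and 20253 CPM in low pigs 3, 5 and 8. TPM2 was 5144, 4449, 4784 and 5756 CPM in the high pigs and 5842, 6723 and 6977 CPM in the low pigs. For TPM1 the groups overlapped, with low pig 5 above all others, while for TPM2 every low pig was above every high pig.

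Alpha-actinin-2, the Z-disc cross-linker present in all fibre types, and the pointed-end proteins were not called in Hampshire, and their groups overlapped. ACTN2 (ENSSSCG00000010144, chromosome 14 from 58645069 to 58717200) ranged from 746 to 1474 CPM in the Hampshire high group and from 976 to 1389 CPM in the low group. TMOD4 (ENSSSCG00000006631, chromosome 4 from 107327290 to 107332130), the tropomodulin of skeletal muscle that caps the pointed end, ranged from 1526 to 1996 CPM in the high group and from 1216 to 1708 CPM in the low group. Their log2 fold changes were -0.080 (SE 0.263) and 0.32 (SE 0.209). LMOD2 (ENSSSCG00000016605, no coordinates in the tables) encodes leiomodin-2, which promotes filament elongation at the pointed end. It had 309, 360 and 207 CPM in high pigs 8, 9 and 10 and 211, 197 and 139 CPM in low pigs 1, 2 and 3. High pig 10 lay just below low pig 1, and the log2 fold change was 0.67 (SE 0.244, edgeR's quasi-likelihood adjusted p = 0.0707). In Pietrain pigs these genes also overlapped between the groups, with LMOD2 between 150 and 355 CPM in the high group and between 181 and 388 CPM in the low group.

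The Hampshire call of NEB held when any 1 of the 6 pigs was left out, with adjusted p between 0.00906 and 0.0230 in edgeR's quasi-likelihood test. With DESeq2 the number of called members rose from 1 to 4, beside 3446 of all 12228 genes called. ACTA1 (adjusted p = 0.0225), TPM1 (0.0127) and LMOD2 (0.0302) passed as well in DESeq2. Without high pig 10, LMOD2 joined NEB in edgeR, beside 1760 of all 12544 genes called.

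**Figure D2:**
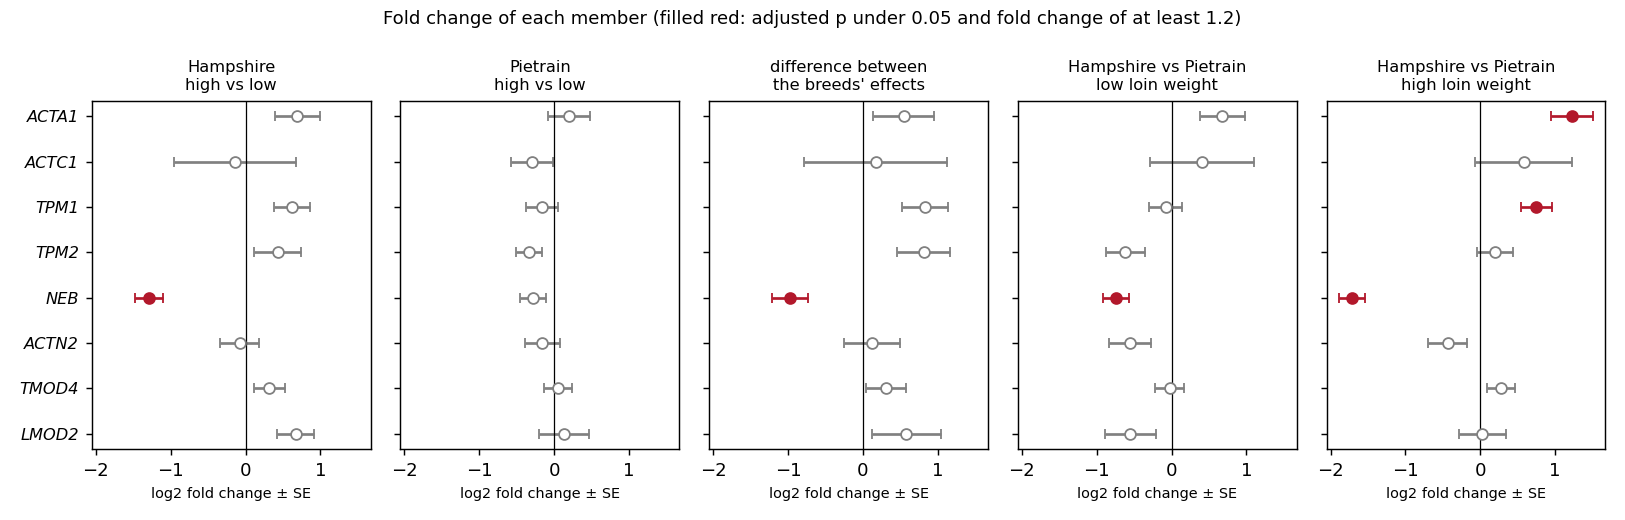
Log2 fold change (x axis, ± SE) of each of the 8 genes in the 5 comparisons, from edgeR. Filled red points passed the test and open grey points did not. NEB is filled in 4 comparisons, at -1.29, -0.97, -0.74 and -1.71, and ACTA1 and TPM1 are filled in the comparison of the breeds at high loin weight only.

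Between the loin weight groups of the Pietrain breed, none of the 8 members was called, beside 0% of 12065 genes called in edgeR's quasi-likelihood test. Their log2 fold changes lay between -0.34 for TPM2 and 0.19 for ACTA1, with a median of -0.16 beside 0.020 over all genes. None of the members had an unadjusted p under 0.05, compared with 398 of all genes, and DESeq2 called 1 gene in all and no member. The groups did not overlap for 1 member, TPM2, beside 4.59% of all genes. TPM2 had a log2 fold change of -0.34 (SE 0.170, n = 4 and 3), an adjusted p of 0.939 in edgeR's quasi-likelihood test and an exact permutation p of 0.0571. NEB had a log2 fold change of -0.28 (SE 0.178), which also did not pass.

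The loin weight effect on NEB differed between the breeds. The difference of the log2 fold changes, Hampshire minus Pietrain, was -0.97 (SE 0.241) with an adjusted p of 0.0311 in edgeR's quasi-likelihood test over all 13 pigs. This was the only member called, beside 5.9% of 12831 genes. For the tropomyosins the difference was 0.83 (SE 0.309, adjusted p = 0.130) for TPM1 and 0.81 (SE 0.353, adjusted p = 0.192) for TPM2, neither of which passed in edgeR's quasi-likelihood test. The NEB difference lost its call with no filter on low counts (-1.04, adjusted p = 0.0508), with the trend on gene length removed (-0.64, adjusted p = 0.157), and without Hampshire low pig 3 (-0.97, adjusted p = 0.0615).

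Set against Pietrain, Hampshire pigs had less NEB at both loin weights and, at high loin weight, more ACTA1 and TPM1. These comparisons share pigs with those within the breeds, so the values are given side by side and not as separate evidence. At high loin weight the log2 fold change, Hampshire minus Pietrain, was -1.71 for NEB (SE 0.172, adjusted p = 1.16e-05), 1.23 for ACTA1 (SE 0.276, adjusted p = 0.00272) and 0.75 for TPM1 (SE 0.210, adjusted p = 0.00985) in edgeR's quasi-likelihood test. The 3 called members of 8 stand beside 46.8% of all genes called in this comparison. The breeds did not overlap for these same 3 members, beside 48.7% of all genes. TPM1 did not pass without Hampshire high pig 9 (0.53, adjusted p = 0.0667). ACTN2 (-0.43, not called) passed without Hampshire high pig 8 (-0.78, adjusted p = 0.0325).

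At low loin weight, 1 member was called, beside 17.9% of all genes. NEB had a log2 fold change of -0.74 (SE 0.176, adjusted p = 0.0184) in edgeR's quasi-likelihood test. The call was lost in turn without Hampshire low pig 2, Hampshire low pig 3, Pietrain low pig 5 or Pietrain low pig 8 (adjusted p up to 0.0920). In that order, those fits called 109, 501, 163 and 111 of all genes, against 2300 with all pigs. ACTA1 and TPM2 had log2 fold changes of 0.68 and -0.62, with adjusted p of 0.118 and 0.104 in edgeR's quasi-likelihood test, and did not pass. The breeds did not overlap for 4 members, ACTA1, TPM2, NEB and ACTN2, beside 42.8% of all genes. Across the 4 groups, the mean level of NEB was 2520 ± 217 CPM in Hampshire high, 6165 ± 422 in Hampshire low, 8255 ± 855 in Pietrain high and 10284 ± 1792 in Pietrain low pigs (mean ± SD, n = 3, 3, 4 and 3). The 2 Pietrain groups, neighbours in that order, overlapped, and the other neighbours did not.

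Ratios between members within a pig do not depend on the library size or the scaling. The trend on gene length given below was not removed from them, and NEB has 104291 bases against 2739 for ACTA1. For every 100 counts of ACTA1, NEB had 2.49, 1.65 and 3.42 counts in Hampshire high pigs 8, 9 and 10. Hampshire low pigs 1, 2 and 3 had 7.94, 8.26 and 13.2. Pietrain pigs had 18.2, 17.9, 34.1 and 11.9 in the high group (pigs 1, 2, 6 and 7) and 18.7, 28.0 and 29.3 in the low group (pigs 3, 5 and 8). The ratio was thus lowest in all Hampshire high pigs, and only Pietrain high pig 7 fell below a Hampshire pig, low pig 3. Over both loin weights the log2 ratio of NEB to ACTA1 was -4.38 ± 1.16 in Hampshire (SD, n = 6) and -2.23 ± 0.531 in Pietrain (SD, n = 7), a difference of -2.16 with an exact permutation p of 0.00117, or 0.0105 when adjusted over the 9 ratio tests. Within Hampshire the difference, high minus low, was -1.98 on the log2 scale, -5.37 ± 0.528 against -3.39 ± 0.405 (SD, n = 3 each). That comparison gave an exact permutation p of 0.10, the smallest it allows. Within Pietrain the difference was -0.38 (exact permutation p = 0.40). Groups in the breed comparison are the pooled loin weights, so that the wide Hampshire SD contains the difference between its groups.

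TPM2 stood at 21.4, 16.2 and 16.5 counts for every 100 of TPM1 in Hampshire high pigs 8, 9 and 10 and at 22.2, 26.1 and 12.3 in low pigs 1, 2 and 3. Pietrain pigs ranged from 24.2 to 29.6 in the high group and from 23.0 to 35.1 in the low group. Only Hampshire low pig 2 reached the Pietrain range. The log2 ratio was -2.43 ± 0.395 in Hampshire (SD, n = 6) and -1.84 ± 0.247 in Pietrain (SD, n = 7), a difference of -0.60 with an exact permutation p of 0.00699, or 0.0315 adjusted. Leaving out 1 pig at a time moved the adjusted p to between 0.0114 and 0.0779, and it missed 0.05 in 7 of the 13 fits. Those 7 left out Hampshire high pig 9 or 10, Hampshire low pig 3, Pietrain high pig 2 or 7, or Pietrain low pig 3 or 8. The ratio of ACTC1 to ACTA1 did not pass in any comparison, with a difference between the breeds of -0.96 (exact permutation p = 0.235).

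**Figure D3:**
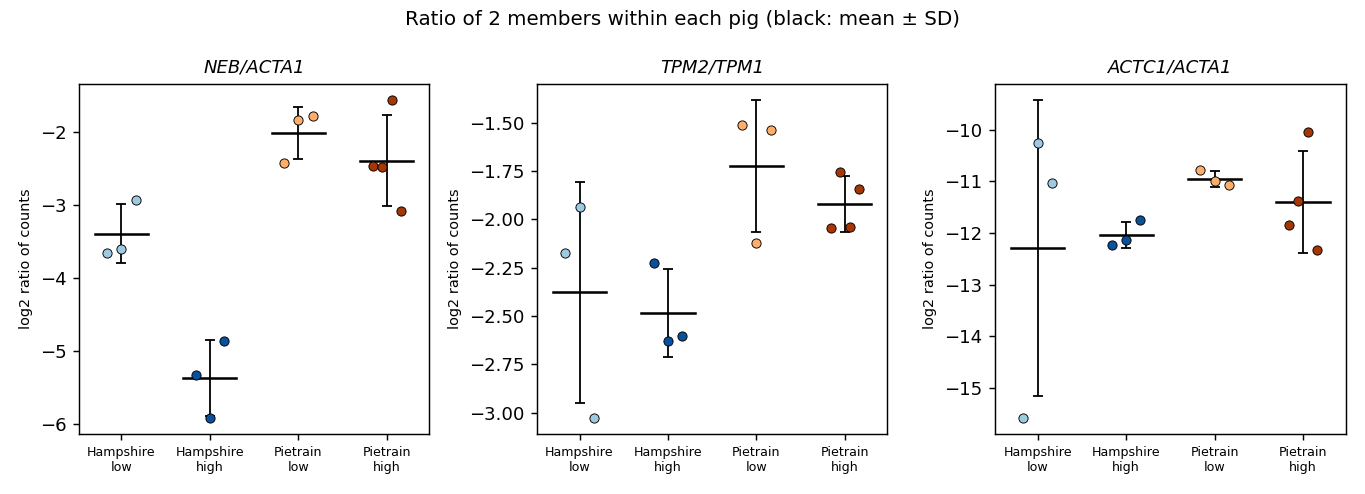
Log2 ratio of the counts of 2 members in each pig (y axis, a separate scale for each pair) by breed and loin weight, with the group mean ± SD in black. The NEB to ACTA1 ratio lies between -5.92 and -4.87 in the Hampshire high pigs, below every other pig, and 1 Hampshire low pig has an ACTC1 to ACTA1 ratio of -15.58.

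The fold changes in Hampshire depended on gene length, measured in bases from its start to its end. Over 9945 genes with coordinates, Spearman's rho between length and log2 fold change was -0.386 in Hampshire, against -0.0893 over 9964 genes in Pietrain, across genes that are not independent replicates. Genes of at least 100000 bases had a median of -0.34 in Hampshire, and 31% of these 920 genes were called lower and 3.59% higher. Genes under 5000 bases had a median of 0.46, and 5.2% of 1616 were called lower and 31% higher. NEB, with 104291 bases, belongs to the first group and ranked 121 of the 920 from the lowest fold change. ACTA1 with 2739 bases and TMOD4 with 4841 bases belong to the second. TPM2, TPM1 and ACTN2 have 7456, 23040 and 72132 bases. The trend was also present in the comparisons between the breeds, over 9975 genes. Spearman's rho was -0.391 at high loin weight, -0.215 at low loin weight and -0.337 for the difference in the loin weight effect. At high loin weight, 42.8% of genes of at least 100000 bases were called lower in Hampshire. Of genes under 5000 bases, 47.8% were called higher there.

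When the trend on gene length was removed, NEB remained called in Hampshire, with a log2 fold change of -0.91 and an adjusted p of 0.00950 in edgeR's quasi-likelihood test. ACTA1 went from 0.69 to 0.35 and TMOD4 from 0.32 to 0.013, whereas TPM1 stood at 0.71. Between the breeds NEB stood at -1.22 at high loin weight (adjusted p = 0.00011) and at -0.58 at low loin weight (adjusted p = 0.0373), both called in edgeR's quasi-likelihood test. At high loin weight ACTA1 went from 1.23 to 0.71 (adjusted p = 0.0275), which still passed in edgeR's quasi-likelihood test. At low loin weight TPM2 then passed as well (-0.76, adjusted p = 0.0426). What the trend itself came from was not tested.

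**Figure D4:**
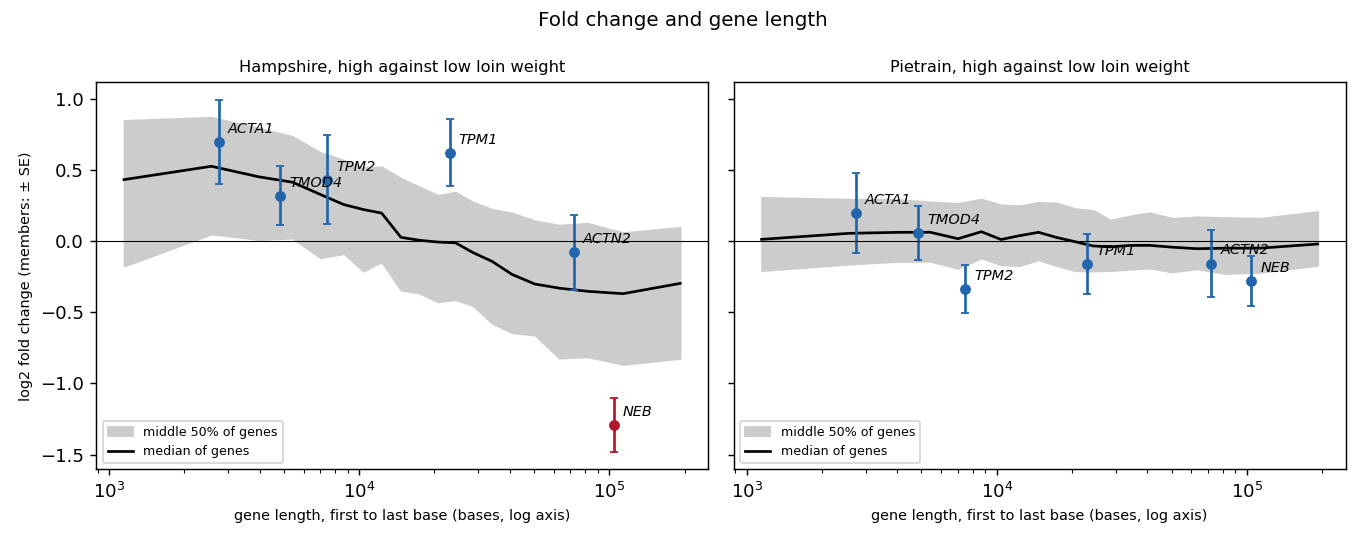
Log2 fold change of high against low loin weight (y axis) against the length of the gene (bases, log axis) in each breed. The black line is the median and the grey band the middle 50% of all genes with coordinates, by bins of length. Points are the 6 members with coordinates (± SE), red where called, and NEB at -1.29 lies below the band in Hampshire.

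The members were set beside 46 related genes listed by role, of which 30 matched an identifier and 29 were tested in Hampshire. Of these, 6 were called higher and 6 lower in the high group, with a median log2 fold change of -0.11, beside the 26.6% of all genes called and 14.6% called lower. In Pietrain, 0 of 28 were called by edgeR, with a median of 0.027. The 3 slow-fibre troponins were called higher in Hampshire: TNNC1 (2.06, SE 0.269, adjusted p = 0.00255), TNNI1 (2.22, SE 0.331, adjusted p = 0.00372) and TNNT1 (2.13, SE 0.319, adjusted p = 0.00376), the calcium-binding, inhibitory and tropomyosin-binding subunits, in edgeR's quasi-likelihood test. TNNC1 was 2796, 2292 and 1450 CPM in high pigs 8, 9 and 10 and 437, 645 and 477 CPM in low pigs 1, 2 and 3, with no overlap. In Pietrain the same gene ran from 132 to 1588 CPM in the high group and from 13.0 to 1288 CPM in the low group, which overlapped over nearly their whole range. The fast troponin C, TNNC2, was 0.72 on the log2 scale in Hampshire and was not called. TPM4, a tropomyosin of non-muscle cells, was at -0.071.

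Of 9 genes of capping and turnover, 1 was called higher and 1 lower in Hampshire, namely PFN1 (profilin, which loads actin monomers, 0.64) and CAP2 (a cyclase-associated protein that acts on actin filaments, -0.81). One of 3 nebulin-related genes was called lower, XIRP2 (-1.11), which encodes an actin-binding Xin repeat protein. XIRP2 was 2169, 1106 and 922 CPM in high pigs 8, 9 and 10 and 2696, 3288 and 3036 CPM in low pigs 1, 2 and 3, without overlap. Of 5 Z-disc partners, 2 were called lower, MYPN (myopalladin, which binds nebulin and alpha-actinin, -1.08) and SYNPO2L (-0.81). MYPN lay between 170 and 192 CPM in the high group and between 364 and 402 CPM in the low group. It was also called in the difference between the breeds (-1.13, SE 0.259, edgeR's quasi-likelihood adjusted p = 0.0222), as NEB was.

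Of the 5 non-sarcomeric actins and actinins, ACTA2 (smooth muscle alpha-actin, 0.82) and ACTG2 (smooth muscle gamma-actin, 2.26) were called higher in Hampshire and ACTN4 (-0.64) lower. ACTG2 was near the detection limit, between 0.0612 and 1.82 CPM over all Hampshire pigs. ACTA2 also differed between the breeds in its loin weight effect (1.32, SE 0.348, edgeR's quasi-likelihood adjusted p = 0.0402). SRF, the transcription factor that drives many actin genes, was called lower (-0.60), and its coactivator MRTFA was at -0.12. The 2 related genes of 29 called in the difference between the breeds were thus MYPN and ACTA2, beside 5.9% of all genes.

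**Figure D5:**
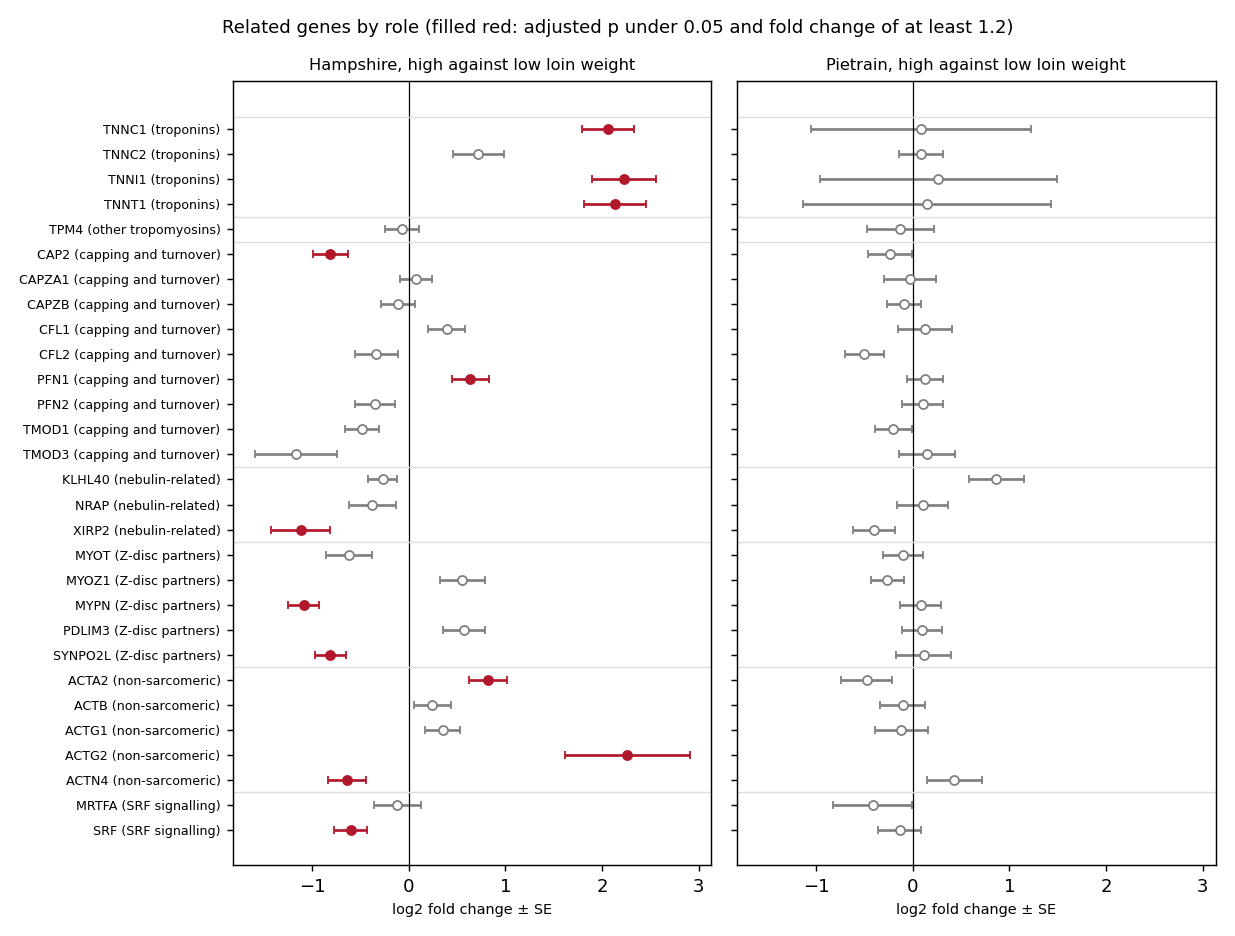
Log2 fold change (x axis, ± SE) of high against low loin weight for the related genes by role, in Hampshire and in Pietrain pigs. Filled red points passed the test. In Hampshire 6 genes lie above and 6 below 0 among the filled points, with the 3 slow troponins above 2, and no point is filled in Pietrain.

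Other cell and fibre type markers moved with the Hampshire loin weight groups, beside every member result of that comparison. All 5 matched slow-fibre markers of 8 were called higher in edgeR, beside the 26.6% of all genes called in this comparison. Their summed level was 11700 to 17800 CPM in the high group and 2834 to 6607 CPM in the low group. In Pietrain the slow-fibre sum was 747 to 11159 CPM in the high and 27.7 to 8271 CPM in the low group. Pietrain low pig 5 had the lowest value, with MYH7, the slow myosin heavy chain, at 6.57 CPM. The fast-fibre sum over 6 of 10 markers was 101396 to 109248 CPM in the Hampshire high group and 98687 to 154640 CPM in the low group, with 1 of 6 called, MYH1, a fast myosin heavy chain, which was lower (-1.25). The other 5 were not called and lay at 0.72 for TNNC2, 0.66 for MYLPF, 0.24 for MYL1, -0.16 for CASQ1 and -0.40 for ATP2A1. Of the 4 skeletal fibre markers, CKM, the creatine kinase of muscle, was called higher (0.98, edgeR's quasi-likelihood adjusted p = 0.0325) and MYH1, which is on both lists, lower. The identifier read as MYH1 here follows the authors' symbol, while the reference names call it MYH8. MYH8 was listed here with the satellite cell and regeneration markers, so the reading of this gene as a fast-fibre marker is uncertain.

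Fibroblast markers were called higher for 3 of the 4 that matched of 5, beside the 26.6% of all genes called in Hampshire. Their sums were 1866 to 4848 CPM in the Hampshire high and 731 to 1571 CPM in the low group. Of 5 smooth muscle markers, all of which matched, 2 were called higher, with sums of 206 to 342 CPM and 137 to 165 CPM. For macrophages 1 of the 3 matched of 4 was called higher, with sums of 22.0 to 36.6 CPM and 15.0 to 18.9 CPM. None of the tested markers of endothelium (2), blood (2), adipocytes (1), heart (1) and satellite cells (3) was called in Hampshire by edgeR. The matched markers of the slow, fast, fibroblast, smooth muscle and macrophage lists were above 0 in every pig. The part of these cell and fibre types in the member results was not tested.

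Markers also differed between the breeds, beside the breed results for NEB, ACTA1 and TPM1. At high loin weight 46.8% of all genes were called. There edgeR called higher in Hampshire 3 of 5 smooth muscle markers (TAGLN 1.95, ACTA2 1.62 and CNN1 1.10), but not MYH11 (0.34) or MYLK (-0.68). Also called higher were 3 of 4 fibroblast markers (COL1A2 1.36, DCN 1.31 and COL3A1 1.03) and 3 of 3 macrophage markers (CSF1R 2.93, CD68 1.56 and AIF1 0.95). Of 3 satellite cell markers, MYOD1 (1.71) and MYF5 (1.53) were called higher, and MYH3 (-0.68) was not called. Of 4 skeletal fibre markers, only CKM (1.36) was called, and MYH1 was lowest at -0.63. Of 6 fast-fibre markers, only TNNC2 (0.86) was called, and the median over the 6 was -0.11. In the slow-fibre list 0 of 5 markers passed. The smooth muscle sum of 206 to 342 CPM in the Hampshire high pigs stood against 86.2 to 105 CPM in the Pietrain high pigs, and the groups did not overlap. At low loin weight 17.9% of all genes were called. Of 3 macrophage markers, CD68 (2.61) and CSF1R (1.88) were called higher in Hampshire, and AIF1 (0.42) was not called. Of 3 satellite cell markers, MYF5 (3.18) and MYOD1 (1.84) were called higher, and MYH3 (0.15) was not called. In Pietrain low pigs MYF5 lay between 0 and 0.317 CPM and CD68 between 0.985 and 1.95 CPM, near the detection limit. TNNT2, a heart marker (3.41), was called higher. Of 6 fast-fibre markers, only MYL1 (-0.78) was called, and the highest was MYH1 (0.67). No fibroblast, smooth muscle or slow-fibre marker was called there. The part of these markers in the breed results was not tested.

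The genes whose pattern over the 13 pigs was most like that of a member were found by the root mean square difference of centred log2 CPM, over 9815 named genes. NEB was closest to FBXO11 (0.125) and USP9X (0.133), while the SD of NEB itself over the pigs was 0.762. ACTA1 was closest to CCM2 (0.152) and GET4 (0.153), with an SD of 0.633. TPM1 was closest to GLRX3 (0.123) and RPS18 (0.129) with an SD of 0.366, and TPM2 to SYCE2 (0.225) and LRRC39 (0.255) with an SD of 0.384. For ACTN2 the genes were SNX30 and IDH3A, for TMOD4 RPP38 and DIABLO, and for LMOD2 COX16 and PPIH. The closest genes to ACTC1, CTHRC1 (0.605) and DHDH (0.642), differed from it by more than any of these, beside an SD of 1.07.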

How the data were processed

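The authors sequenced loin muscle RNA of 13 pigs, with libraries from a kit that does not mark strand (TruSeq RNA v2). The authors deposited raw counts per Ensembl gene for each pig, in a table for each breed, on Sscrofa10.2. The submitters' processing notes name FastQC, STAR, RSEM and DESeq2 with no role. The annotation release and the strand setting are not given in the sources used here. The deposited tables of the authors' own comparisons (log2 fold changes, scores, p-values) were used for gene symbols and coordinates only. Of 25322 identifiers, 13168 had a symbol, 7066 from those tables and 6102 from a reference table of names alone. In 292 cases the sources differed.

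The members and lists were chosen with earlier results of these data known. Every member was named. Related genes were named where called in Hampshire or in the breed difference, and a few others as examples chosen after their values were seen. The 2 most alike genes were named per member.

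edgeR 4.0.16 (R 4.3.3) with TMM, filterByExpr and the quasi-likelihood test was fitted to all genes, within each breed, or over 13 pigs for comparisons between breeds. SE was computed from the log2 fold change and F statistic. Exact permutation tests were 2-sided, on log2(CPM + 0.5) and on log2 ratios with 0.5 counts added to both genes. Nothing in the labels pairs pigs, and each replicate is 1 animal, so the tests set differences between groups against variation between animals. All pairs of pigs of a group differed beyond counting noise. Alternatives were DESeq2 1.42.0, its size factors, other filters, other samples in the fit, no fold change threshold, removal of the length trend (loess on log10 length, 6 members with coordinates) and leaving out each pig. On simulated counts, edgeR called 127 of 198 genes changed by a log2 fold change of 1.58 in Hampshire with 7 false calls, 136 of 200 in Pietrain with 4, and 69 of 200 in the breed difference with 2. The changed genes were well-counted ones, and all other genes had the same level in every pig. There was no trend on gene length, so these figures need not carry over to the real comparisons. Figures used matplotlib 3.10.9 in Python 3.11.15.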

Additional observations from a re-analysis of the deposited data

Results flagged for a closer look

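The log2 ratio of ACTC1 to ACTA1 was -15.58 in Hampshire low pig 1. Among the 6 Hampshire pigs of both loin weights it was separated from the nearest pig by 0.628 of the whole range, just above Dixon's critical value for 6 samples. ACTC1 had 25 counts in that pig. Of 14 such groups checked, chance flags about 1 in 20.

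The effect of loin weight on NEB differed between the breeds by -0.97 on the log2 scale (SE 0.241), with an adjusted p of 0.0311 in edgeR's quasi-likelihood test over all pigs. NEB fell by 1.29 in Hampshire and had a log2 fold change of -0.28, not called, in Pietrain. The call of the difference was lost with no filter on low counts, with the trend on gene length removed (-0.64) and without Hampshire low pig 3.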

How the results depend on the processing

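No paired analysis was possible because the high and low pigs of a breed share no pig number. NEB kept its direction in all 5 comparisons under every alternative run, and its Hampshire call (log2 fold changes from -1.36 to -0.91) and its call between breeds at high loin weight (from -1.80 to -1.22) under all of them. The number of members called in Hampshire was 4 with DESeq2 instead of 1, beside 3446 of all 12228 genes instead of 3256. It was 1 to 2 when a pig was left out, beside 1224 to 3049 of all genes. In the breed difference the number of members called was 0 instead of 1 with no filter (626 of 19235 genes called) and with the length trend removed (427 of 9975). It was 0 to 1 when a pig was left out, beside 379 to 1052 of all genes and 757 with all pigs. Between the breeds at low loin weight it was 2 instead of 1 from a fit of those groups alone (ACTA1 added, 2830 of 12023 genes). It was also 2 with the length trend removed (TPM2 added, 2312 of 9975 genes). Without a pig it was 0 to 1, beside 109 to 2611 of all genes and 2300 with all pigs. At high loin weight it was 2 to 4 without a pig, beside 4640 to 6288 of all genes. ACTN2 was added there without Hampshire high pig 8, beside 5491 of 13181 genes.

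Directions turned for members that were not called. With the length trend removed, ACTN2 in Hampshire became 0.26, and between the breeds at high loin weight TPM2 became -0.17, ACTN2 0.011 and TMOD4 -0.20. LMOD2 there became -0.042 with no filter, and TMOD4 at low loin weight became 0.014 with at least 10 counts in every pig. Leaving out a pig gave, in Hampshire, -0.75 to 0.97 for ACTC1 and -0.41 to 0.12 for ACTN2. In Pietrain it gave -0.11 to 0.40 for ACTA1, -0.30 to 0.065 for TPM1, -0.022 to 0.19 for TMOD4 and -0.10 to 0.51 for LMOD2. In the breed difference it gave -0.43 to 1.23 for ACTC1 and -0.24 to 0.26 for ACTN2. At low loin weight it gave -0.66 to 0.97 for ACTC1, -0.19 to 0.17 for TPM1 and -0.16 to 0.12 for TMOD4, and at high loin weight -0.21 to 0.19 for LMOD2. The within-pig ratios ranged from -1.40 to 1.26 for ACTC1 to ACTA1 and from -0.43 to 0.11 for TPM2 to TPM1 in Hampshire, and from -0.69 to -0.48 for TPM2 to TPM1 between the breeds. The causes of these changes were not tested, other than that fewer pigs or genes enter those fits. ACTC1 and LMOD2 have no coordinates, so the length trend could not be removed from them. Planned ratios with ACTN3, LMOD3 or TPM3 could not be computed, because these symbols matched no identifier. Depth limits ACTC1 alone among the members, with 25 counts in 1 pig.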

Other observations

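The 8 members together took 11.3% to 15.4% of all counts in the Hampshire high pigs, 8.79% to 10.8% in the Hampshire low pigs, 7.17% to 10.8% in the Pietrain high pigs and 8.04% to 8.36% in the Pietrain low pigs. The Hampshire high pigs did not overlap with any other group in this sum, most of which was ACTA1. ACTA1 alone took 7.69% to 11.2% of counts in the Hampshire high pigs and 5.44% to 7.34% in the Hampshire low pigs. In Pietrain pigs it took 3.06% to 7.02% in the high group and 3.65% to 4.73% in the low group. NEB went the other way, with 0.185% to 0.263% in Hampshire high and 0.554% to 0.716% in Hampshire low pigs. The sum was not compared with that of other genes.

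TNNT2, the troponin T of heart and developing muscle and the only heart marker tested of the 3 matched of 6, was looked at after its values were seen, beside ACTC1. In the Hampshire low group it was 1.71 CPM in pig 1 and 63.6 CPM in pig 2, where ACTC1 was 1.53 and 57.0 CPM, and for pig 3 both genes lay between, so that pig 1 was lowest and pig 2 highest for both genes. In the Hampshire high group TNNT2 was 2.04, 9.36 and 9.02 CPM in pigs 8, 9 and 10, where ACTC1 was 21.6, 30.6 and 22.6 CPM. In Pietrain pigs TNNT2 lay between 0.489 and 7.45 CPM, and the order of the pigs was not shared. High pig 7 had the most TNNT2 of the breed (7.45 CPM) but 13.7 CPM of ACTC1. High pig 6 had the most ACTC1 (25.9 CPM) and 4.54 CPM of TNNT2. In the comparison of the breeds at low loin weight TNNT2 was called higher in Hampshire (3.41, SE 1.05, edgeR's quasi-likelihood adjusted p = 0.0394). Hampshire low pig 1 nevertheless lay below all Pietrain low pigs, which had 1.98 to 3.94 CPM. NPPB, a natriuretic peptide of heart, was at 0 in 12 of the 13 pigs.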
